A study of Mus musculus with 8 samples.

Results

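The 10 genes described here encode transcription factors of the Paneth and secretory lineage of the small intestine: Atoh1, Gfi1, Sox9, Spdef, Bhlha15, Creb3l1, Creb3l4, Foxa3, Hes1 and Cdx2. They were found by matching the Ensembl IDs of the count table to these symbols, and all 10 were present among the 55414 gene IDs and passed the filter on low counts, which left 13368 genes. RNA-seq was run on Paneth cells, which secrete antimicrobial peptides at the crypt base, sorted from wild-type mice (C57BL/6J). The mice had received an injection of either PBS, a saline buffer that served as control, or the inflammatory cytokine TNF (tumor necrosis factor), and the small intestine was taken after 3 hours. Each group held 4 libraries, described as biological replicates and taken from individual mice, and the series was made to ask how TNF changes gene expression in these cells.

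In the intestinal crypt, a choice between the absorptive and the secretory fate is made through Notch signalling between neighbouring cells. A cell that receives Notch signal expresses Hes1, a repressor of Atoh1, and a cell that escapes it expresses Atoh1, the basic helix-loop-helix (bHLH) factor on which all secretory cells depend. Downstream of Atoh1, Gfi1 is a repressor that holds off the enteroendocrine fate, and Spdef promotes the maturation of Paneth and goblet cells. Sox9 is required for Paneth cells to form. Bhlha15 (also known as Mist1), Creb3l1 and Creb3l4 are known for building the secretory apparatus, Foxa3 belongs to the forkhead factors of gut endoderm, and Cdx2 sets intestinal identity.

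Total counts per library ranged from 23824717 to 32576077. TNF replicate 4 stood apart from the others: 51.45% of its counts fell on Defa (alpha-defensin) genes against 32.02 to 37.93% in the other 7 libraries, its TMM scaling factor was 0.448 against 0.9952 to 1.357, and the second principal component (15.8% of the variance) separated it from all other libraries. Markers of Paneth cells were abundant in every library, with Lyz1 (lysozyme) at 141700 ± 24800 normalized CPM (counts relative to a library size corrected by its TMM factor) in PBS and 229500 ± 150000 in TNF (SD, n = 4). Values below are normalized CPM unless another scale is named, errors of means are SD, and n is 4 libraries per group. In bulk RNA, fewer cells of a type and less RNA per cell cannot be told apart.

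Promoter sequence upstream of the annotated start was taken from RefSeq (GRCm38.p6) and was held for 7 of the 10 factors, in 10 windows of 250 bases. It is printed for the 3 factors with the largest falls and for Cdx2, whose RNA did not pass the test, so that the E-boxes (CANNTG, the hexamer bound by bHLH factors such as Atoh1 and Bhlha15) can be compared. Capitals mark every E-box, the search covered both strands, and positions count back from the start site to the first letter of the match. The windows are Atoh1 at chr6:64728875-64729124 (plus strand), the more upstream of both Gfi1 starts at chr5:107725806-107726055 (minus strand), Bhlha15 at chr5:144190036-144190285 (plus strand) and Cdx2 at chr5:147307250-147307499 (minus strand).
Atoh1: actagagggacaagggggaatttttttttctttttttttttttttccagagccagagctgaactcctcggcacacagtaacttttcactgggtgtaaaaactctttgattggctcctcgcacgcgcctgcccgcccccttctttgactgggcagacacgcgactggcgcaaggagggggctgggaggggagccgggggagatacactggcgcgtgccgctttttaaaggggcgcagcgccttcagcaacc
Gfi1: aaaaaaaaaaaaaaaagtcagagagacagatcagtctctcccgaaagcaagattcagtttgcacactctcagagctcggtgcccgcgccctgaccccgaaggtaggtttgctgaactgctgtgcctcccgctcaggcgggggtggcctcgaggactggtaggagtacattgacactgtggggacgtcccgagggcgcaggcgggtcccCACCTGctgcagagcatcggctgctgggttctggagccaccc
Bhlha15: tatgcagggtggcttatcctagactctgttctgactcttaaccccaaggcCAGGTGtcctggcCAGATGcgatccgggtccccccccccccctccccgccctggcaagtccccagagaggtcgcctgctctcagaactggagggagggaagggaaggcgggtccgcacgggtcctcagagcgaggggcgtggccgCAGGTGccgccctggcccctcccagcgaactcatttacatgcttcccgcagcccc
Cdx2: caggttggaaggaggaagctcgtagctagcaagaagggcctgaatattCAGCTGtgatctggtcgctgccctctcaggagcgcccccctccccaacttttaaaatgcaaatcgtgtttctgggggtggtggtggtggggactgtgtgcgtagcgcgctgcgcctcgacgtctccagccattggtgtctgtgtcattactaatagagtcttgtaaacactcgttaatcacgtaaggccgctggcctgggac

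The Atoh1 window held no E-box. The printed Gfi1 window held 1 at -42, Bhlha15 held 3 at -200, -187 and -55, and Cdx2 held 1 at -202, which was of the CAGCTG type. The other Gfi1 window, which is not printed, held 1 at -156. Of all 10 windows 6 held an E-box, against 66.2% of 32817 RefSeq promoters of the same length. CAGCTG, which is contained in CANNTG, was in 1 window (Cdx2) and in 13.0% of all promoters. CACNAG, the N-box bound by Hes factors, was in 1 window of Creb3l4 (36.7% of all promoters), TGGGAA, the core bound by Rbpj, was in the Spdef window (21.6%), and the NF-kB site was in the Foxa3 window (3.9%). These matches are letters in a window and no measure of binding.

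TNF against PBS was tested across all genes by the quasi-likelihood method of edgeR, and a gene was called where its adjusted p was under 0.05. Of the 10 factors 8 were called, against 43.0% of all genes tested. Atoh1, Gfi1, Bhlha15, Creb3l1, Creb3l4 and Hes1 fell (19.6% of all genes fell), Sox9 and Spdef rose (23.3% of all genes rose), and Foxa3 and Cdx2 did not pass the test. Atoh1, Gfi1 and Bhlha15 fell by at least 2-fold, as did 8.24% of all genes. The normalized CPM of the groups did not overlap for 8 factors, the exceptions being Spdef and Cdx2, against 42.1% of all genes. The median log2 fold change was -0.54 over the 10 factors and 0.03 over all genes tested.

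**Figure D1:**
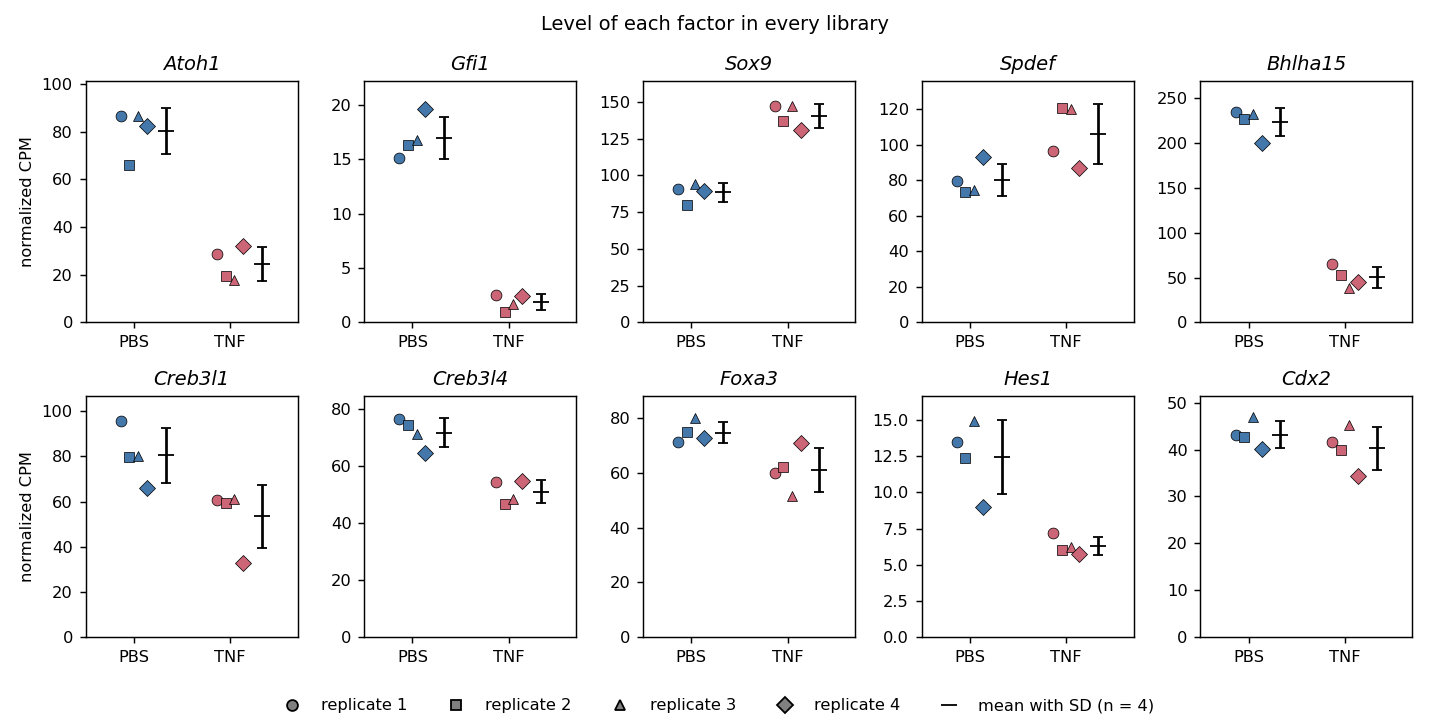
Normalized CPM (vertical axis, from 0) of each factor in the 4 PBS (blue) and 4 TNF (red) libraries, with marker shapes for the replicate number and the mean with SD beside each group. Atoh1, Gfi1 and Bhlha15 lie far lower in all 4 TNF libraries, Sox9 lies higher in all 4, and the groups overlap for Spdef and Cdx2.

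Atoh1 (ENSMUSG00000073043, a single exon at chr6:64706109-64708229, plus strand, GRCm39) was at 86.5, 66.1, 86.6 and 82.2 in PBS replicates 1 to 4. In TNF replicates 1 to 4 it was at 28.6, 19.4, 17.8 and 32. Every TNF library was thus below the lowest PBS library, PBS replicate 2. The mean fell from 80.4 ± 9.73 to 24.5 ± 6.96, which left 30.3% of the PBS level, with -1.72 on the log2 scale (SE 0.20, edgeR adjusted p = 5.51e-05).

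Gfi1 (ENSMUSG00000029275, chr5:107864523-107873902, minus strand), a zinc finger repressor, fell the most of the 10. Its level was 15.1, 16.3, 16.7 and 19.6 in the PBS libraries and 2.48, 0.970, 1.65 and 2.41 in the TNF libraries. The groups were far apart, and TNF kept 10.8% of the PBS level. On the log2 scale the change was -3.21 (SE 0.25, edgeR adjusted p = 4.6e-06). Counts behind these values ranged from 28 to 866, and the 2 lowest, in TNF replicates 2 and 4, were both 28. Gfi1 shares 327 exon bases with the antisense gene A430072P03Rik, whose counts were 0.447% of those of Gfi1.

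Bhlha15 (ENSMUSG00000052271, chr5:144127086-144131259, plus strand), a bHLH factor of cells with a large secretory apparatus, had the highest level of the 10 in PBS. Its values were 234.8, 226.6, 232 and 200.4 in PBS and 64.9, 52.9, 37.9 and 44.9 in TNF, with no overlap. The mean fell from 223.4 ± 15.7 to 50.2 ± 11.6, to 22.5% of the PBS level, or -2.15 on the log2 scale (SE 0.17, edgeR adjusted p = 5.09e-06). It shares 2 exon bases with Tecpr1 on the other strand, whose counts were 19.1% of those of Bhlha15.

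Hes1 (ENSMUSG00000022528, chr16:29882134-29886643, plus strand), the Notch target that represses Atoh1, was low in both groups. PBS replicates 1 to 4 gave 13.5, 12.4, 14.9 and 8.96, and TNF replicates gave 7.21, 6.02, 6.25 and 5.76. PBS replicate 4 lay closest to the TNF libraries but above all of them. Its log2 change of -0.97 (SE 0.17, edgeR adjusted p = 0.000919) left 51.1% of the PBS level. Hes1 and Atoh1, its known target of repression, were thus both lower in every TNF library.

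The log2 ratio of Atoh1 to Hes1 within each library, which does not depend on scaling between libraries, was 3.38 ± 0.34 in PBS (3.09 to 3.87) and 2.59 ± 0.42 in TNF (2.18 to 3.15), both per kilobase of exons. The ratio was different by -0.79 in TNF. The groups overlapped only through TNF replicate 4, the highest TNF library, and PBS replicate 2, the lowest PBS library. The other TNF libraries, at 2.66, 2.35 and 2.18, lay below all PBS libraries. On leaving out a library the difference ran from -0.98 (without TNF replicate 4) to -0.63 (without PBS replicate 4).

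Sox9 (ENSMUSG00000000567, chr11:112673009-112678586, plus strand), an HMG box factor, was the factor with the clearest rise. It was at 90.7, 79.5, 94.5 and 89.4 in PBS and at 147.3, 136.8, 147 and 130.7 in TNF. The lowest TNF value was well above the highest PBS value. The mean rose from 88.5 ± 6.36 to 140.4 ± 8.12, by 0.67 on the log2 scale (SE 0.11, edgeR adjusted p = 0.00073). With scaling by library size alone the log2 fold change was 0.29 and the call was lost (edgeR adjusted p = 0.532), and the plain CPM of the groups overlapped. Sox9 shares 542 exon bases with BC006965 on the opposite strand, whose counts were 0.144% of those of Sox9.

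Spdef (ENSMUSG00000024215, chr17:27933326-27947929, minus strand), an ETS factor of goblet and Paneth cells, was at 79.3, 73.3, 74.7 and 92.9 in PBS and at 96.6, 120.9, 120.1 and 87 in TNF. TNF replicate 4 lay below PBS replicate 4, so the groups overlapped. Its log2 change was 0.41 (SE 0.14, edgeR adjusted p = 0.0399). This call was among the least stable: it was kept in 5 of 16 alternatives and was lost on leaving out any single library other than TNF replicate 4. It was also lost when TMM factors were computed before the filter on low counts (edgeR adjusted p = 0.0985). With scaling by library size alone the log2 fold change was 0.04 (edgeR adjusted p = 0.943).

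Set within each library against Cdx2, which did not pass the test, both of these factors separated the groups. The log2 ratio of Sox9 to Cdx2 per kilobase was 0.16 ± 0.11 in PBS and 0.93 ± 0.09 in TNF, without overlap. The log2 ratio of Spdef to Cdx2 was 0.86 ± 0.23 in PBS and 1.37 ± 0.16 in TNF, with the highest PBS value at 1.19 and the lowest TNF value at 1.20. The log2 ratio of Sox9 to Atoh1 went from -0.83 ± 0.09 in PBS to 1.59 ± 0.46 in TNF, again without overlap. Such ratios show unequal change between a pair of genes and are free of scaling between libraries. These 3 ratios were chosen after the values had been seen and were not tested.

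Cdx2 (ENSMUSG00000029646, chr5:147237615-147244091, minus strand), a homeobox factor, was at 43.1, 42.6, 47 and 40.1 in PBS and at 41.6, 39.9, 45.2 and 34.4 in TNF. The groups overlapped, and the lowest value was that of TNF replicate 4. Its log2 change was -0.10 (SE 0.11, edgeR adjusted p = 0.507), and Cdx2 was called in 0 of 16 alternatives.

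Creb3l1 (ENSMUSG00000027230, chr2:91812673-91854917, minus strand), a membrane-bound bZIP factor of secretory cells, was at 95.7, 79.6, 80.3 and 66.2 in PBS and at 60.6, 59.4, 61.3 and 32.7 in TNF. TNF replicate 4 was far below the other 3 TNF libraries. It changed by -0.59 on the log2 scale (SE 0.20, edgeR adjusted p = 0.0348), or by -0.40 with TNF replicate 4 left out (edgeR adjusted p = 0.0161). The call was kept in 10 of 16 alternatives. It was lost on leaving out any of PBS replicates 1, 2 and 3 or TNF replicates 1 and 2 (edgeR adjusted p from 0.0534 to 0.113). It was also lost with library size alone (-0.88, edgeR adjusted p = 0.116).

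Creb3l4 (ENSMUSG00000027938, chr3:90144103-90150845, minus strand), a relative of Creb3l1, was at 76.5, 74.5, 71.3 and 64.8 in PBS and at 54.5, 46.6, 48.5 and 54.6 in TNF. All TNF libraries lay below all PBS libraries. Its log2 change was -0.49 (SE 0.11, edgeR adjusted p = 0.00408), and the call was kept in 16 of 16 alternatives. Creb3l4 shares 241 exon bases with Jtb on the opposite strand, and the sources used here do not say whether the counting used strand. The mean level of Jtb was 69.9% of that of Creb3l4 in PBS and 131% in TNF (104% without TNF replicate 4). Jtb was at 50.2 ± 5.28 in PBS, at 49.5, 54.1 and 52.4 in TNF replicates 1 to 3 and at 110.7 in TNF replicate 4. It had a log2 fold change of 0.40 (edgeR adjusted p = 0.202).

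Foxa3 (ENSMUSG00000040891, chr7:18747209-18757471, minus strand) was at 71.2, 74.8, 80.2 and 72.6 in PBS and at 59.9, 62, 51.4 and 71 in TNF. The groups did not overlap, but TNF replicate 4 came close to the lowest PBS library, replicate 1. On the log2 scale the difference was -0.29 (SE 0.12, edgeR adjusted p = 0.0727). It passed the threshold in 3 of 16 alternatives, among them leaving out TNF replicate 4 (-0.36, edgeR adjusted p = 0.0104), and also with TMM factors computed before the filter (edgeR adjusted p = 0.0413).

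**Figure D2:**
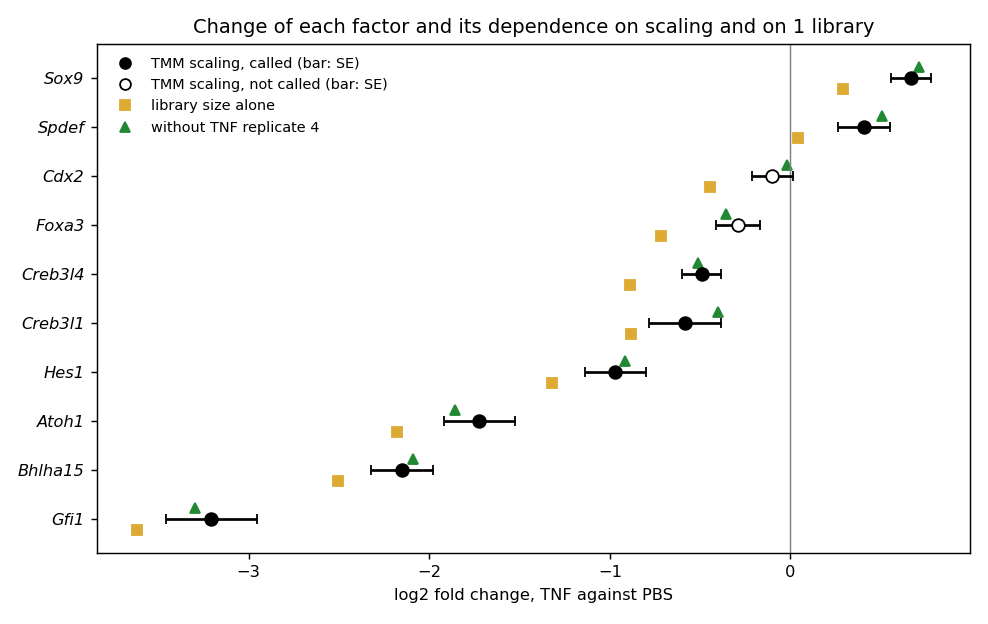
Log2 fold change of each factor, TNF against PBS (horizontal axis), with TMM scaling (circles, bars are SE, filled where called), with scaling by library size alone (squares) and without TNF replicate 4 (triangles). Library size alone moves every factor to the left, which takes Spdef to 0.04 and Sox9 to 0.29, while Gfi1, Bhlha15 and Atoh1 stay the lowest in each setting.

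Scaling by library size alone moved the median of all genes from 0.03 to -0.38 and the share of calls that were higher from 54.3% to 23.8%. Under it 5 of the 10 factors were called lower and 0 higher, against 18.1% and 5.66% of all genes.

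Levels were also compared between the factors per kilobase of merged exons (normalized CPM per kilobase). In PBS, Bhlha15 was highest at 63.6 ± 4.47 and stood clear of Atoh1 at 37.9 ± 4.59. Atoh1, Foxa3 (36.5 ± 1.92) and Spdef (34.7 ± 3.88) overlapped with their neighbours in the order, as did Creb3l4 (29.8 ± 2.12) with Creb3l1 (29.7 ± 4.45) and Sox9 (21.2 ± 1.52) with Cdx2 (19 ± 1.24). Gfi1 (5.31 ± 0.60) and Hes1 (3.68 ± 0.75) were the lowest.

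In TNF the order was different. Spdef came first at 46.1 ± 7.39, followed by Sox9 at 33.6 ± 1.94 and Foxa3 at 29.9 ± 3.93, of which Sox9 and Foxa3 overlapped. Creb3l4 (21.2 ± 1.71), Creb3l1 (19.8 ± 5.13), Cdx2 (17.7 ± 1.99), Bhlha15 (14.3 ± 3.3) and Atoh1 (11.5 ± 3.28) followed, each overlapping with its neighbour in this run of 5. Bhlha15 had thus gone from rank 1 to rank 7 and Atoh1 from rank 2 to rank 8, whereas Sox9 had gone from rank 7 to rank 2. Hes1 (1.87 ± 0.19) was above Gfi1 (0.589 ± 0.224), the reverse of PBS. The order of this last pair depends on the length used: per kilobase of the canonical transcript, Hes1 (8.14 ± 1.66) was above Gfi1 (5.92 ± 0.67) in PBS already, with overlap, and Spdef (41.6 ± 4.65) was second.

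**Figure D3:**
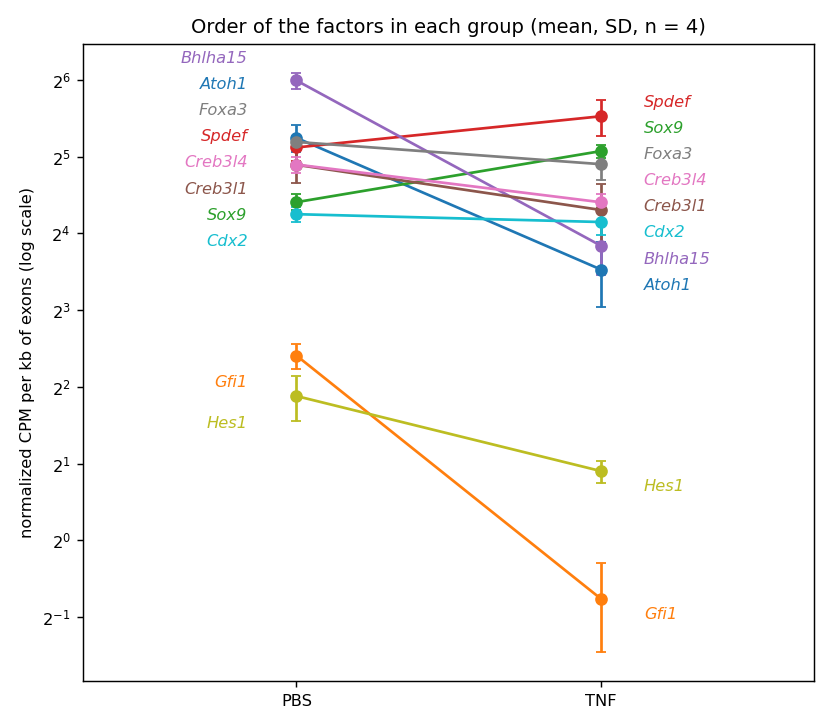
Mean level of each factor in PBS and in TNF in normalized CPM per kilobase of merged exons (log scale, bars are SD, n = 4), with a line joining the same factor and names listed in the order of the levels. The lines of Bhlha15 and Atoh1 fall from the top of the order to below Cdx2, the line of Gfi1 falls below that of Hes1, and those of Sox9 and Spdef rise.

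Relatives of these factors in the same gene families changed in both directions. For their counts and those of the lists below, the shares over all genes tested were 23.3% higher and 19.6% lower. Of 15 relatives 8 were tested, 2 rose and 2 fell, with a median log2 fold change of 0.09. The median turned to -0.03 without TNF replicate 4, where Cdx1 was called higher and Hes2 lower in addition. Foxa2, a pioneer factor of endoderm, fell from 20.1 ± 1.33 to 4.00 ± 0.38 (log2 fold change -2.33, edgeR adjusted p = 3.52e-07), whereas Foxa1 rose from 33.8 ± 4.84 to 54.7 ± 8.11 (0.70, edgeR adjusted p = 0.00269). The call of Foxa1 was lost with library size alone (0.33, edgeR adjusted p = 0.533). Hes6, a bHLH factor that opposes Hes1, fell from 26.6 ± 2.27 to 8.88 ± 3.20 (-1.61, edgeR adjusted p = 0.000174). Creb3, the founding member of its family, rose from 14.3 ± 1.83 to 23.0 ± 3.77 (0.68, edgeR adjusted p = 0.00323), a call also lost with library size alone (0.25, edgeR adjusted p = 0.527).

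The other tested relatives did not pass. Cdx1 went from 78.2 ± 3.79 to 95.8 ± 12.5 (log2 fold change 0.29, edgeR adjusted p = 0.0772), and it had a log2 fold change of -0.05 with library size alone and 0.40 without TNF replicate 4 (edgeR adjusted p = 0.00236). Creb3l2, Creb3l3 and Hes7 had log2 fold changes of -0.11, -0.30 and 0.53. Sox10, Hes3 and Cdx4 had 0 counts in all libraries, and Gfi1b, Sox8, Hes2 and Hes5 were too low to test.

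Among the E proteins, with which Atoh1 and other class II bHLH factors form dimers, and the Id proteins, which sequester E proteins, 7 of 7 genes were tested, 1 rose and 3 fell, with a median log2 fold change of 0.10. Tcf12 was by far the most abundant of them and fell from 136.5 ± 16.7 to 38.3 ± 8.23 (-1.83, edgeR adjusted p = 1.4e-05). Id4 fell (-2.26, edgeR adjusted p = 0.000654) from a level of 1.6 ± 0.52 to 0.345 ± 0.12. Id1 rose from 4.23 ± 0.37 to 7.94 ± 2.44 (0.89, edgeR adjusted p = 0.00414), except with library size alone (0.41, edgeR adjusted p = 0.263). The remaining call was Tcf3, at 19.3 ± 0.12 in PBS and 14.9 ± 2.33 in TNF (-0.37, edgeR adjusted p = 0.0352), and it was lost in 9 of 16 alternatives, among them library size alone and leaving out any of the PBS libraries or TNF replicate 2 or 3.

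Notch pathway genes around Hes1 showed 0 rises and 6 falls among the 10 tested of 12, with a median log2 fold change of -0.94. The count of rises was also 0 at an unadjusted p under 0.05 in edgeR and with DESeq2 or limma-voom. Dll4, a Notch ligand that Paneth cells present to stem cells, fell from 27.8 ± 0.79 to 4.14 ± 0.75 (-2.75, edgeR adjusted p = 3.26e-07), and the ligand Dll1 fell from 26.3 ± 1.97 to 11.4 ± 2.26 (-1.20, edgeR adjusted p = 8.27e-05). The receptor Notch1 fell from 12.1 ± 2.26 to 3.69 ± 0.82 (-1.72, edgeR adjusted p = 5.67e-05). Rbpj, through which Notch acts on its targets, was at 8.99 ± 0.31 and 8.53 ± 0.43 and was not called. Hes6 is a member of this list too.

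Factors of other lineages were split. Of 12 enteroendocrine and tuft lineage factors 5 were tested, 0 rose (0 also at an unadjusted p under 0.05 in edgeR and with DESeq2 or limma-voom) and 2 fell (median -0.18). Without TNF replicate 4 the median was -0.38 and 1 gene was called higher, Neurod1 (1.29, edgeR adjusted p = 0.0324), which is too low to test in all libraries. Nkx2-2 fell from 4.8 ± 0.55 to 0.953 ± 0.475 (-2.44, edgeR adjusted p = 6.1e-05) and Sox4 from 25.1 ± 4.79 to 8.96 ± 2.01 (-1.49, edgeR adjusted p = 0.000111). Of 15 absorptive and general intestinal factors, all tested, 5 rose and 5 fell (median 0.07). Elf3, an ETS factor of the gut epithelium, rose from 131.4 ± 11.1 to 345.2 ± 45.4 (1.39, edgeR adjusted p = 2.31e-05), and Klf5, a factor of proliferating crypt cells, rose from 62.8 ± 7.9 to 139.4 ± 9.54 (1.15, edgeR adjusted p = 3.76e-05). Prdm1, a transcriptional repressor known from gut epithelium before weaning, rose from 0.517 ± 0.194 to 5.32 ± 2.03 (3.34, edgeR adjusted p = 2.62e-05). The call of Klf5 was lost with library size alone (0.77, edgeR adjusted p = 0.107).

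**Figure D4:**
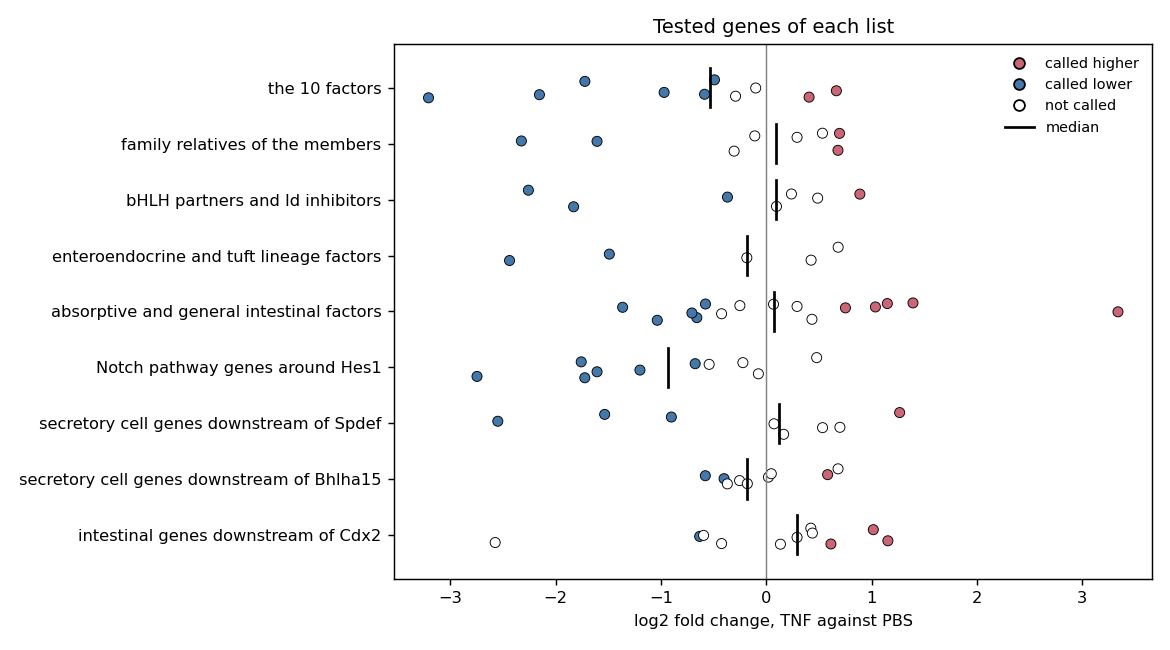
Log2 fold change, TNF against PBS (horizontal axis), of every tested gene in the 10 factors and in 8 lists around them, filled red where called higher and blue where called lower, with the median of each list as a vertical bar. The Notch pathway list lies furthest to the left with a median of -0.94, and most of the other lists hold genes on both sides of 0.

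With library size alone, under which the median of all genes moved by the shift given above, the medians that changed sign among these 8 lists were those of the relatives (-0.25), the E and Id proteins (-0.30), the absorptive and general factors (-0.25), the genes downstream of Spdef (-0.65) and those downstream of Cdx2 (-0.21).

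Genes known to depend on these factors in secretory or intestinal cells were counted in the same way. Of 8 genes downstream of Spdef 1 rose and 3 fell (median 0.12). Without TNF replicate 4 the median was -0.59 and 4 fell, the added gene being Agr2, a disulfide isomerase of mucus cells (-1.28, edgeR adjusted p = 4.14e-05, against 0.17 and 0.858 with all libraries). Clca1, a goblet cell secretory protein, was at 170.5 ± 256 in PBS, where replicate 1 was high, and at 29.3 ± 8.7 in TNF (-2.55, edgeR adjusted p = 0.0295). Its log2 change was -0.60 without PBS replicate 1, and its call was lost on leaving out TNF replicate 1, 2 or 3, with limma-voom (-1.53, adjusted p = 0.102) and with the replicate block (-1.33, edgeR adjusted p = 0.193), while DESeq2 gave it no adjusted p. Muc2, the gel-forming mucin, rose from 1960 ± 457 to 4718 ± 1380 (1.27, edgeR adjusted p = 0.00438), while Fcgbp, a mucus protein, fell from 738.9 ± 265 to 255 ± 73.7 (-1.53, edgeR adjusted p = 0.00142) and Galnt12, a mucin glycosyltransferase, fell from 127.3 ± 10.1 to 68.1 ± 10.5 (-0.90, edgeR adjusted p = 0.000422). The rise of Muc2 was lost with library size alone (0.96, edgeR adjusted p = 0.0831).

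Of 9 genes downstream of Bhlha15 1 rose and 2 fell (median -0.18). Smpd3, a sphingomyelinase, fell from 71.3 ± 8.42 to 47.7 ± 2.5 (-0.58, edgeR adjusted p = 0.00215), and Rab3d, a small GTPase of secretory granules, fell from 292.2 ± 27.2 to 221.4 ± 20.3 (-0.40, edgeR adjusted p = 0.031). Atp2c2, a calcium pump of the secretory pathway, rose from 20.9 ± 2.86 to 31.4 ± 3.09 (0.58, edgeR adjusted p = 0.00393). The call of Rab3d differed in 8 of 16 alternatives, 6 of which left out a single library, and that of Atp2c2 was lost with library size alone (0.18, edgeR adjusted p = 0.714).

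Of 11 genes downstream of Cdx2 3 rose and 1 fell (median 0.29). Without TNF replicate 4 the median was -0.09, with 4 genes higher and 3 lower, and with library size alone 0 were higher and 4 lower. Cdh17, an intestinal cadherin, rose from 183.6 ± 24.8 to 408.9 ± 67.6 (1.16, edgeR adjusted p = 0.000261), and Gpa33, a surface antigen of intestinal epithelium, rose from 73.3 ± 6.4 to 112.2 ± 14 (0.61, edgeR adjusted p = 0.00277). Both calls were lost with library size alone (edgeR adjusted p = 0.0785 and 0.583). Mep1a, a brush border protease, fell from 8.05 ± 1.12 to 5.15 ± 1.31 (-0.63, edgeR adjusted p = 0.0197), a call lost when PBS replicate 1, PBS replicate 2, TNF replicate 1 or TNF replicate 3 was left out.

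Markers of Paneth cells and of other cell types of the gut were counted as well. The study sorted Paneth cells through a FACS gate and describes them as nearly free of other cells. Some markers differed between the groups, and their part in the changes of the 10 factors was not tested. In the summed levels here and below, the TMM factor of TNF replicate 4 (0.448) makes its normalized CPM higher than its plain CPM. Paneth cell markers had 3 of 10 called higher, Reg3g (1.80 on the log2 scale), Pla2g2a (1.01) and Nupr1 (0.81), and 1 lower, Dll4. The calls of Pla2g2a and Nupr1 were lost with library size alone. Goblet cell markers had 1 of 6 higher and 2 lower, and their summed level was 6522 to 10240 in PBS, 10960 to 11660 in TNF replicates 1 to 3 and 22770 in TNF replicate 4. Stem cell markers had 3 of 4 lower, with a summed level of 1399 to 2305 in PBS and 1298 to 1831 in TNF, and Lgr5, which defines crypt stem cells, fell from 52.6 ± 4.8 to 22.7 ± 4.18 (-1.21, edgeR adjusted p = 8.41e-05), beside Ascl2 (-2.13) and Smoc2 (-0.56, a call lost with library size alone).

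Cycling cell markers had 1 of 4 lower, Birc5 at -0.58 (summed level 105.5 to 144.2 in PBS, 60.1 to 112.2 in TNF), a call lost when PBS replicate 2 or TNF replicate 3 was left out. Enterocyte markers had 1 of 7 lower, Apoa4 at -3.94 (28.1 to 42.5 in PBS, 15.3 to 20 in TNF replicates 1 to 3 and 59.8 in TNF replicate 4), but 3 of 7 without TNF replicate 4, where Fabp2 was at -0.89 and Sis at -0.92, and 3 with library size alone. Enteroendocrine cell markers had 3 of 4 tested genes higher, Chga at 1.95, Chgb at 1.95 and Gcg at 1.13 (10.3 to 13.2 in PBS, 30.3 to 39.9 in TNF replicates 1 to 3 and 61 in replicate 4). The call of Gcg was lost in 8 of 16 alternatives, which were library size alone, the replicate block, at least 1 CPM in 4 libraries and leaving out PBS replicate 1, 3 or 4 or TNF replicate 2 or 4. Those of Chga and Chgb were kept in 16 of 16 alternatives. The tuft cell markers had 0 of 3 called by edgeR, DESeq2 or limma-voom, or at an unadjusted p under 0.05 in edgeR (11.9 to 27.3 in PBS, 7.58 to 14.7 in TNF replicates 1 to 3 and 52.9 in replicate 4). Immune cell markers had 1 of 2 tested genes higher, Cd52 at 1.69 (7.06 to 13 in PBS, 10.7 to 13.8 in TNF replicates 1 to 3 and 68.7 in replicate 4), and Cd3e, which defines T cells, was at 0 in all libraries. Stroma markers had 1 of 1 tested gene higher, Vim at 2.05 (0.223 to 0.453 in PBS, 1.23 to 1.7 in TNF), and Col3a1 was at 0 in all libraries.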

How the data were processed

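RNA-seq counts of sorted mouse Paneth cells (4 PBS and 4 TNF libraries) were analysed as deposited. The authors deposited raw counts per Ensembl gene ID, 1 column per library, without normalization. The submitters' processing notes name STAR 2.7.10a, FastQC 0.12, DESeq2 and mm39, while the sources used here name neither the counter nor its use of strand or of multi-mapped reads. Symbols, coordinates and exon lengths came from GENCODE M39 (GRCm39), which matched 54749 of 55414 IDs.

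The test was the quasi-likelihood one of edgeR 4.0.16 (R 4.3.3), with filterByExpr, then TMM factors, no covariate and Benjamini-Hochberg adjustment over all tested genes at a threshold of 0.05. Standard errors were taken from the F statistic. Computing TMM factors after or before the filter, with library sizes kept or recomputed, gave 5746, 5747, 5588 and 5585 calls. The first was used because it returned the number of calls known from an earlier analysis of these data, and the choice decides the calls of Spdef and Foxa3. The factors, the gene lists and the rules for named genes were chosen with earlier results of these data known. Besides the 10 factors, the text names each tested family relative, the 3 called genes with the smallest p in each other list, Paneth identity genes and markers that moved. Rbpj, Tcf3, Agr2, Clca1, Krt20 and some other genes whose call differed without TNF replicate 4 were added after values had been seen. So were the genes of the count table that share exon bases with a factor.

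Alternatives were library size alone, RLE scaling, factors computed without Defa genes, no filter beyond 1 count, at least 1 CPM in 4 libraries, DESeq2 1.42.0, limma-voom 3.58.1, the replicate number as a block and leaving out each library. The procedure was also run on simulated data in which few genes changed. That run did not probe scaling where many genes change, as here (43.0% of all genes called). No pair of libraries in a group agreed within sampling noise.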

Additional observations from a re-analysis of the deposited data

Results flagged for a closer look

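In 8 of 80 groups of 4 libraries checked, 1 library lay far from the other 3, and chance flags about 1 in 20 such groups. Of these, 4 were in TNF replicate 4: Creb3l1 at 32.7 normalized CPM (59.4 to 61.3 in the other 3), Id1 at 11.6 (6.65 to 6.78), Lyz1 at 454000 (140000 to 166000) and Defa24, an alpha-defensin, at 454000 (133000 to 153000). The others were Hes6 at 30 (25.1 to 25.9) and Dll4 at 26.6 (28.2 in each of the others) in PBS replicate 2, and Klf5 at 74.6 (57.9 to 60.3) and Cdh17 at 147 (192 to 201) in PBS replicate 4. The TMM factor of TNF replicate 4 (0.448) makes its normalized CPM higher than its plain CPM. On the log2 scale Lyz1 changed by 0.07 with library size alone and by 0.70 with TMM scaling. Defa24 changed by 0.16 and 0.82, and neither gene was called.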

How the results depend on the processing

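Across 16 alternatives the calls of Atoh1, Gfi1, Bhlha15, Creb3l4 and Hes1 were kept in all, that of Sox9 in 15, that of Creb3l1 in 10 and that of Spdef in 5, and no factor changed sign. Of 160 values of the 10 factors, 139 kept their side of the threshold, 18 lost the call and 3 gained it. With library size alone, 3182 genes and 0 factors higher were called. There the calls of Sox9 (log2 fold change 0.29), Spdef (0.042) and Creb3l1 (-0.88) were lost. The number of factors called higher was 1 with RLE scaling, with no filter beyond 1 count and with the replicate block, and 1 to 2 on leaving out a library. Spdef was at 0.40 with RLE scaling, 0.37 with no filter and 0.31 to 0.51 on leaving out a library. On leaving out a library Creb3l1 ran from -0.69 to -0.40 and Foxa3 from -0.36 to -0.21, with Foxa3 called without PBS replicate 4 (-0.35) or TNF replicate 4 (-0.36). DESeq2 also called Foxa3 (-0.31). The causes were not tested.

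Same-numbered libraries did not deviate together (correlations of 0.02, 0.07, -0.14 and -0.13). The largest correlation was 0.24, between PBS replicate 4 and TNF replicate 3. Such deviations, with TNF replicate 4 far from the rest of its group, cannot settle whether same-numbered samples were handled together. With the replicate number as a block 5087 genes were called and Spdef, at 0.40, was not (edgeR adjusted p = 0.108), the calls of the other 9 factors being the same.

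An alternative tried after the data were seen, TMM factors computed before the filter, gave 5588 calls (5585 with library sizes kept), 1 factor higher and 7 lower, with Spdef lost (0.37) and Foxa3 gained. Counts ranged from 28 to 866 for Gfi1 and from 67 to 502 for Hes1, the lowest of the 10 factors.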
